A study of Mus musculus with 6 samples.

Results

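The DNA topoisomerases are the enzymes that cut, pass and reseal DNA strands to remove the twists and tangles left by replication and transcription. The members were chosen by symbol, as the mouse genes Top1mt, Top1, Top2a, Top2b, Top3a and Top3b, which are 6 of the 30236 genes in the table. All 6 lay above the filter on low values and were among the 22677 genes tested. The question was whether any paralog was higher in liver tumors of mice without Top1mt, and how the members stood to each other in each tumor.

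Sequenced RNA came from 6 liver tumors, 3 from WT and 3 from Top1mt-KO animals, all male, of the strain C57BL/6 and bred as littermates from heterozygous parents. Both groups received the same carcinogens, diethylnitrosamine on day 14 after birth and then carbon tetrachloride 2 times a week for 14 weeks from week 8, and tumors were taken at 22 weeks. By their labels the groups differ in genotype alone, and untreated liver was not analysed here. The paper states that tumors were induced over time in several litters, and the litter of each tumor is not given in the sources used here. How the knockout allele was built, and which exons it removes, is not given in the sources used here. The values are log2 expression values normalized by the authors, and the depth of each library is unknown.

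Type IB enzymes (Top1 in the nucleus, Top1mt in mitochondria) and type IA enzymes (Top3a, Top3b) cut a single strand, whereas type II enzymes (Top2a, Top2b) cut both strands of a helix and pass another helix through the break. Each holds the broken end on a tyrosine of its active site until the strand is sealed. Top2a is made mainly in dividing cells, Top2b also in resting ones, Top3a serves both the nucleus and mitochondria, and Top3b also acts on RNA.

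The tissue label was checked against its markers. Albumin (Alb), the main hepatocyte product, had log2 values from 20.3 to 21.1, and Hnf4a, a hepatocyte transcription factor, from 13.0 to 13.5. All 6 hepatocyte markers were present in every library. The fetal liver and tumor marker Afp ranged from 8.06 to 13.2, so the tumors of both genotypes differed widely among themselves. In bulk tissue, fewer cells of a type and less RNA per cell cannot be told apart.

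Some libraries stood apart. Top1mt, the targeted gene, went against the label in the library labelled WT replicate 2, as its values below show, and the groups were kept as labelled. In the library labelled Top1mt-KO replicate 1 a single transcript, Gm42418, made up 17.7% of the summed linear values, against 0.0199% to 0.387% in the other 5 libraries. The members' differences and the medians of the lists of genes that work beside them or neighbour Top1mt are given with and without these libraries, while the cell type marker lists are given over all 6.

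Top1mt, the mitochondrial type IB enzyme, had a log2 value of 7.71 in the library labelled WT replicate 1, 5.99 in that labelled replicate 2 and 8.01 in that labelled replicate 3. In the libraries labelled Top1mt-KO it had 5.58 in replicate 1, 6.41 in replicate 2 and 6.32 in replicate 3. The library labelled WT replicate 2 lay below Top1mt-KO replicates 2 and 3, so the groups overlapped. The log2 fold change was -1.13 (95% interval -2.34 to 0.07), with an adjusted p of 0.999 by limma and p = 0.3 by an exact two-sided permutation test. With 3 tumors against 3 that test allows no p below 0.1. Without the library labelled WT replicate 2 the log2 fold change was -1.76, and with Top1mt-KO replicate 1 left out as well it was -1.49. The library labelled WT replicate 2 stands apart by its Top1mt value itself, so leaving it out lowers the fold change and narrows the spread by construction, and no test of Top1mt is read from these values. Without Top1mt-KO replicate 1 alone the log2 fold change was -0.87 (95% interval -2.26 to 0.52). Without WT replicate 3 it was -0.75, the smallest change over the 12 alternatives. Over the 12 alternatives the adjusted p ran from 0.604 to 1. Transcript of the gene was thus still counted in all 3 Top1mt-KO tumors, and values per gene do not show from which exons it came.

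Top1, the nuclear type IB enzyme and closest paralog of Top1mt, had log2 values of 10.40, 10.48 and 10.30 in WT replicates 1, 2 and 3. In Top1mt-KO replicates 1, 2 and 3 it had 10.15, 10.17 and 10.04. Every Top1mt-KO tumor lay below every WT tumor, with a gap of 0.13 between the groups, the reverse of the order that a rise in Top1mt-KO would give. The log2 fold change was -0.27 (standard error 0.12, 95% interval -0.55 to 0.01). The exact two-sided permutation test gave p = 0.1, the smallest it can give, and limma an adjusted p of 0.999, so the difference did not pass the threshold. It was -0.23 without the library labelled WT replicate 2 and -0.29 without Top1mt-KO replicate 1, and it lay between -0.32 and -0.23 over the 12 alternatives. Within the WT group, Top1 was highest in the library where Top1mt was lowest, and lowest in the library where Top1mt was highest. How many of all genes tested share this order of 3 libraries was not counted. The Top1mt-KO group did not show this order: Top1 was highest in replicate 2 (10.17), where Top1mt was highest as well (6.41).

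Top1 was the only member of the 6 whose groups did not overlap. Over all genes tested, the share without overlap was 4.33% with Top1mt-KO lower and 3.95% with Top1mt-KO higher, so 1 of 6 members is read against these. At an adjusted p under 0.05, limma called 0 of the 6 members and 0 of all genes tested (0.0%). At an unadjusted p under 0.05 it called 985 genes (4.34%), 405 higher and 580 lower in Top1mt-KO, and again 0 of the 6 members. The split was 481 higher and 485 lower with quantile normalization, and 370 and 678 without the library labelled WT replicate 2. The unadjusted p was 0.061 for Top1mt and 0.058 for Top1 in the limma fit, the nearest to the threshold in the family.

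Top2a, the type II enzyme of dividing cells, had log2 values of 8.60, 8.86 and 9.73 in WT replicates 1, 2 and 3. In Top1mt-KO replicates 1, 2 and 3 it had 9.24, 9.30 and 9.39. The Top1mt-KO tumors lay close together, inside the span of the WT tumors, which had an SD of 0.59 against 0.07 (n = 3 each). The log2 fold change was 0.25 (95% interval -0.38 to 0.87, adjusted p = 0.999 by limma; exact permutation p = 0.5). It depended on single WT tumors, being 0.58 without WT replicate 3, the highest of the 6, and 0.016 without WT replicate 1. WT replicates 1 and 2 lay below every Top1mt-KO tumor and WT replicate 3 above every one. It was 0.15 without the library labelled WT replicate 2 and 0.28 without Top1mt-KO replicate 1.

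Cell division genes were set beside Top2a. The mean centred log2 level of 26 proliferation genes was -0.51, -0.01 and 0.43 for WT replicates 1, 2 and 3 and 0.12, -0.09 and 0.06 in Top1mt-KO replicates 1, 2 and 3. As for Top2a, WT replicate 1 was the lowest and WT replicate 3 the highest of the 6 libraries in this mean. Single genes varied: 19 of the 26 had the WT tumors in the order of Top2a and 7 did not, beside 14.6% in that order over all genes tested, a count made after the values were seen. Of these genes 16 were higher and 10 lower in Top1mt-KO, with a median log2 fold change of 0.07, beside -0.015 and 47.7% higher over all genes tested. This median was -0.14 without WT replicate 1, 0.26 without WT replicate 3, 0.11 without the library labelled WT replicate 2 and -0.0099 without Top1mt-KO replicate 1, so its sign rested on single libraries. Mki67, a nuclear protein of cycling cells, was the most abundant. Its log2 values were 9.63, 10.65 and 10.67 in WT and 10.8, 10.5 and 10.31 in Top1mt-KO, highest in Top1mt-KO replicate 1. The summed level of the whole list on the log2 scale was 11.98, 12.50 and 12.81 in WT and 12.59, 12.39 and 12.45 in Top1mt-KO. Bub1, a spindle checkpoint kinase, had the largest log2 fold change, 0.48. Mcm2, a subunit of the replicative helicase, had the smallest, -0.52, with every Top1mt-KO tumor below every WT tumor and an unadjusted p of 0.045 by limma. It was the only gene of the 26 for which either held. Over all genes tested, 4.34% passed an unadjusted p of 0.05 and 4.33% did not overlap with Top1mt-KO lower, so Mcm2 is read against these. The part of cell division in the Top2a values was not tested.

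Top2b, the type II enzyme also found in resting cells, had log2 values of 10.26, 10.38 and 10.51 in WT replicates 1, 2 and 3. In Top1mt-KO replicates 1, 2 and 3 it had 10.32, 10.56 and 10.35. It was the steadiest member, spanning 0.30 over the 6 tumors, and its groups overlapped throughout. The log2 fold change was 0.03 (95% interval -0.29 to 0.34, adjusted p = 0.999 by limma; exact permutation p = 0.8), -0.048 without Top1mt-KO replicate 2 and -0.035 without WT replicate 1. Without the library labelled WT replicate 2 it was 0.03, and without Top1mt-KO replicate 1 it was 0.07.

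Top3a, the type IA enzyme that separates joined DNA molecules in nucleus and mitochondria, had log2 values of 7.02, 6.97 and 7.49 in WT replicates 1, 2 and 3. In Top1mt-KO replicates 1, 2 and 3 it had 7.01, 7.18 and 7.57. Replicate 3 was the high tumor in each group, and the groups overlapped. The log2 fold change was 0.10 (95% interval -0.44 to 0.63, adjusted p = 0.999 by limma; exact permutation p = 0.6). It was -0.061 without Top1mt-KO replicate 3, -0.0020 without the library labelled WT replicate 2 and 0.22 without Top1mt-KO replicate 1.

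Top3b, the type IA enzyme that also acts on RNA, had log2 values of 9.03, 8.77 and 8.98 in WT replicates 1, 2 and 3. In Top1mt-KO replicates 1, 2 and 3 it had 8.74, 8.93 and 9.34. Top1mt-KO replicate 3 was the highest and Top1mt-KO replicate 1 the lowest of the 6, so the Top1mt-KO group enclosed the WT group. The log2 fold change was 0.07 (95% interval -0.35 to 0.50, adjusted p = 0.999 by limma; exact permutation p = 0.9). It was -0.098 without Top1mt-KO replicate 3, -0.0068 without the library labelled WT replicate 2 and 0.20 without Top1mt-KO replicate 1.

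**Figure D1:**
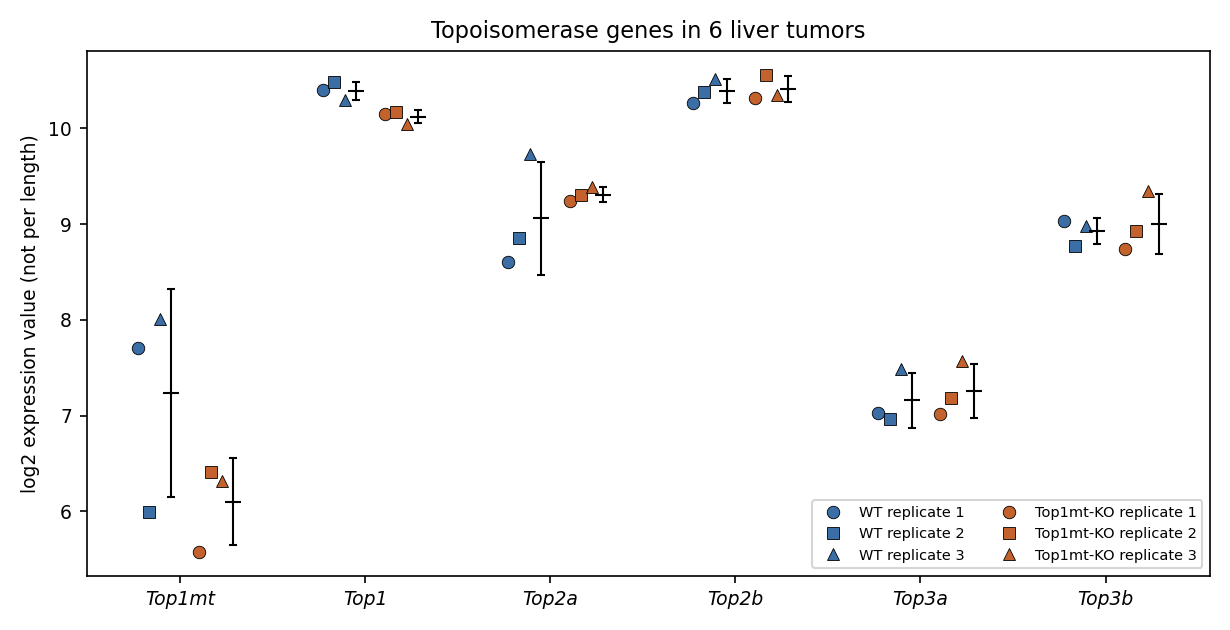
Log2 expression value (not per length) of each member, with a point for each of 3 WT and 3 Top1mt-KO tumors and a bar for the mean ± SD of each group. Only the Top1 groups are apart, with Top1mt-KO lower, and the square of WT for Top1mt lies at 5.99, among the Top1mt-KO values.

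The intervals state how large a rise of each paralog these tumors allow. With all 6 libraries, the upper 95% bound of the fold in Top1mt-KO against WT was 1.01 for Top1, 1.27 for Top2b, 1.41 for Top3b, 1.55 for Top3a and 1.83 for Top2a. Rises up to these folds lie inside the intervals, and a p that misses the threshold does not show that the levels were equal. As log2 fold changes these bounds were 0.01, 0.34, 0.50, 0.63 and 0.87, in the same order. Without Top1mt-KO replicate 1 they were 0.02, 0.41, 0.63, 0.81 and 1.05, so larger rises lay inside the intervals. Without the library labelled WT replicate 2 they were 0.11, 0.41, 0.49, 0.62 and 0.90. These bounds are on the scale of the log2 values. The transform is not named but behaves like a regularized log, which would draw weakly expressed genes toward their mean.

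**Figure D2:**
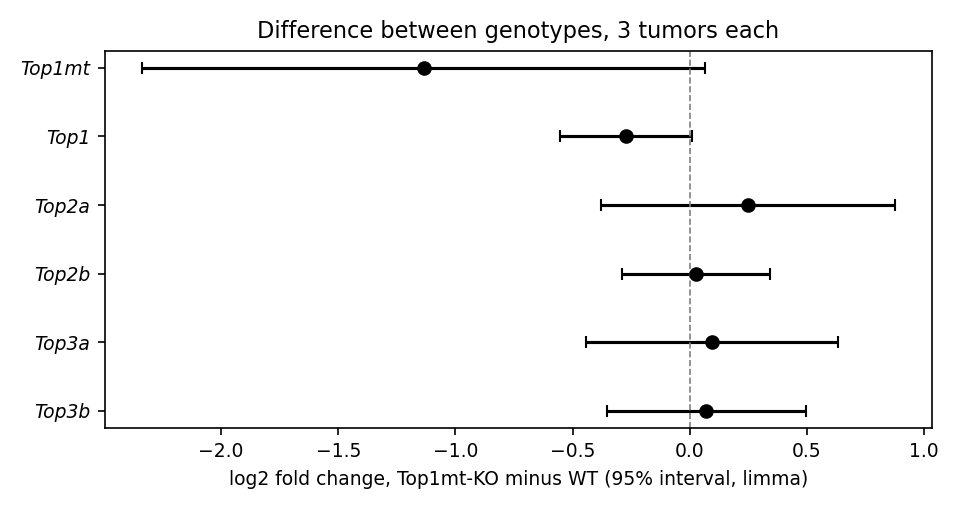
Log2 fold change of each member, Top1mt-KO minus WT, as points with 95% intervals from limma (3 tumors each) and a dashed line at 0. The points run from -1.13 for Top1mt to 0.25 for Top2a, and every interval includes 0.

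Levels were compared between members on a per length scale, as the log2 value minus the log2 of the length in kb of all annotated exons joined. On this scale the means over 6 libraries were 6.88 ± 0.16 for Top1, 6.53 ± 0.12 for Top2b, 6.01 ± 0.40 for Top2a, 5.89 ± 0.22 for Top3b, 5.64 ± 0.97 for Top1mt and 5.01 ± 0.26 for Top3a (SD, n = 6). These means pool both genotypes, and for Top1mt they mix WT with its own knockout. In WT replicates 1 and 3 Top1mt lay above Top2b, Top2a and Top3b, and in the other libraries below them. Among protein-coding genes, Top1 stood at percentile 78.1 and Top3a at percentile 54.4. Of the 15 pairs of members, 9 had the same order in all 6 libraries, each with p = 0.03125 by an exact two-sided sign-flip test, the smallest it can give, and 0.0521 after adjustment over the 15 pairs. With this length, Top1 was above Top2b by 0.34 on average, and Top2b above Top2a by 0.52, in every library.

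Neighbours in this order were not all distinct. Top2a and Top3b differed by 0.12 with an SD of 0.41, and each was the higher in 3 of 6 libraries (exact sign-flip test, p = 0.5). Top1mt changed places with its neighbours from tumor to tumor, since its per length level was 6.68, 4.96 and 6.98 for WT replicates 1, 2 and 3 and 4.55, 5.38 and 5.29 in Top1mt-KO. With this length it was the highest member of the family in WT replicate 3, 0.06 above Top1, while in the library labelled WT replicate 2 and in Top1mt-KO replicate 1 it lay below Top1 by more than in any other library.

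The order depended in part on the length used. With the longest annotated transcript as the length, the per length means were 8.31 for Top1, 7.15 for Top3b, 7.03 for Top2b, 6.80 for Top2a, 5.74 for Top1mt and 5.30 for Top3a, so Top3b moved from rank 4 to rank 2. Then 10 of 15 pairs had the same order in all libraries, with an adjusted p of 0.0469 by the exact sign-flip test, and 7 of these were among the 9 pairs above. Each such pair has the smallest p this test can give, so the adjusted p follows from the number of such pairs alone. Its fall below 0.05 is not read as stronger evidence. Top2a was no longer below Top2b in every library (higher in 2 of 6) nor Top3b below Top2b (higher in 3 of 6), while Top1mt was below Top1, Top2b and Top3b in all 6. In WT replicate 3 Top1mt was then at 7.08, against 8.35 for Top1. In the means over 6 libraries, Top1 was the highest and Top3a the lowest with both lengths. With both, Top1mt was above Top3a in 4 of 6 libraries and below it in Top1mt-KO replicates 1 and 3. With the longest transcript these were 4.65 against 5.11 in replicate 1 and 5.39 against 5.66 in replicate 3. With no length correction, where levels of different genes cannot be compared, Top2b had the highest mean over 6 libraries, 10.40, and Top1mt the lowest. In WT alone the mean of Top1mt, 7.24, lay above that of Top3a, 7.16.

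The makeup of the family differed from tumor to tumor. The Top1mt share of the summed per length level was 22.7%, 8.00% and 23.3% for WT replicates 1, 2 and 3 and 6.39%, 10.02% and 9.25% in Top1mt-KO replicates 1, 2 and 3. WT replicates 1 and 3 stood well above the rest, and the library labelled WT replicate 2 lay among the Top1mt-KO tumors. The difference in mean share, Top1mt-KO minus WT, was -9.47 percentage points (exact permutation p = 0.3), -14.5 without the library labelled WT replicate 2 and -8.39 without Top1mt-KO replicate 1. Its size depended on the length used, being -5.71 with the longest transcript and -2.45 with no length correction. The Top1 share spanned 22.4% to 35.1%, and with the longest transcript it spanned more (34.0% to 47.5%) than that of Top1mt (3.51% to 14.1%).

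Shares in a library add up to 100, so a lower Top1mt share raises the others by construction. Top3a took 6.29%, 6.96% and 7.23% of the sum in WT and 7.67%, 7.61% and 9.76% in Top1mt-KO, without overlap (exact permutation p = 0.1, the smallest possible). Top3b took 13.9%, 13.3% and 11.1% in WT and 13.9%, 13.9% and 18.3% in Top1mt-KO, the groups meeting at 13.9% (exact permutation p = 0.1). With the longest transcript as the length, both gave p = 0.3 by the exact permutation test. For neither gene did the level itself separate the groups, as given above.

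**Figure D3:**
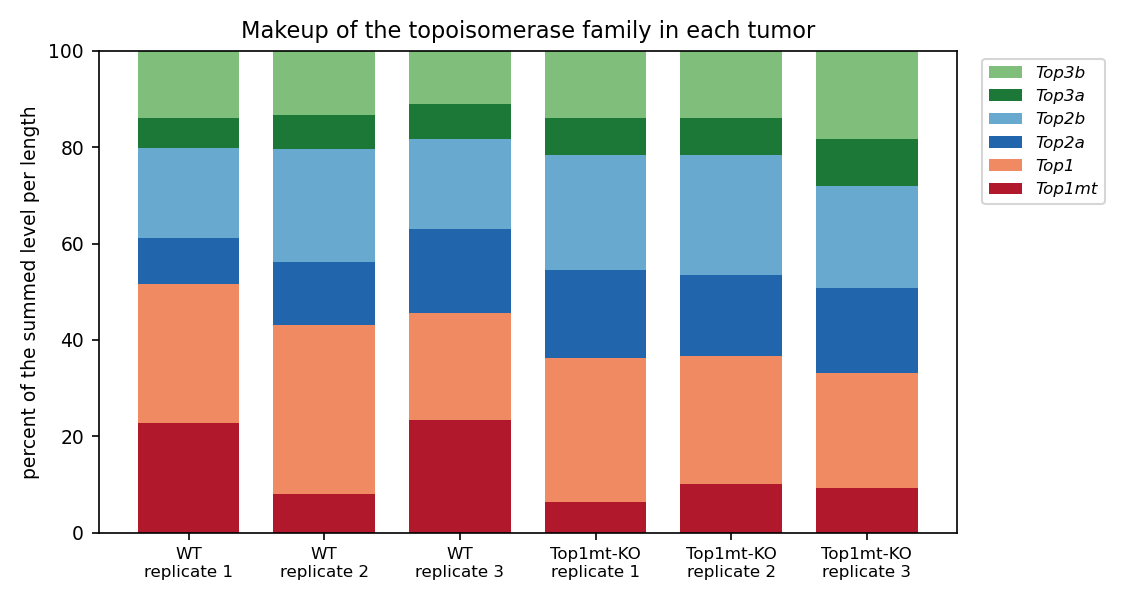
Share of each member in the summed per length level (percent, stacked to 100) in each of the 3 WT and 3 Top1mt-KO tumors. Top1mt takes 22.7% and 23.3% in WT replicates 1 and 3 and 6.39% to 10.02% in the other 4 libraries.

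As a sum, the 5 paralogs differed between the genotypes by less than the spread among tumors. The log2 of their summed per length level was 8.44, 8.49 and 8.69 for WT replicates 1, 2 and 3 and 8.42, 8.55 and 8.58 in Top1mt-KO replicates 1, 2 and 3. The groups overlapped, with a difference of -0.025 (8.52 ± 0.09 in Top1mt-KO and 8.54 ± 0.13 in WT, SD, n = 3; exact permutation p = 0.8). It was 0.023 without Top1mt-KO replicate 1, -0.051 without the library labelled WT replicate 2 and 0.052 without WT replicate 3. With Top1mt added to the sum, the difference was -0.19 (exact permutation p = 0.3).

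Ratios within a library show the type pairs. The per length log2 ratio of Top1 to Top1mt was 0.34, 2.13 and -0.06 for WT replicates 1, 2 and 3 and 2.22, 1.41 and 1.38 in Top1mt-KO. The library labelled WT replicate 2 again sat with Top1mt-KO replicate 1 at the high end. The ratio of Top2a to Top2b ran from -0.96 to -0.09 and that of Top3b to Top3a from 0.62 to 1.14, and both overlapped between the genotypes.

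The members share an active-site tyrosine, which the choice by symbol did not use, and the coding sequence around it is shown to let paralogs be compared base by base. Each window holds 63 bases of the longest complete coding transcript, 5′ to 3′ on the strand of the gene, with the tyrosine codon in capitals (GENCODE M21, GRCm38). Windows are given for the type II and type IA pairs.

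The type IB pair, Top1mt and Top1, is identical at 68.6% of aligned bases over the whole coding sequence, and the longest run of identical bases in their transcripts is 19, shorter than the sequenced reads. The type II pair is closer over its length, at 72.4%, with a longest run of 23. In Top2a the tyrosine is codon 804 of 1528, at chr11:99006020-99006022 on the minus strand, and in Top2b codon 814 of 1612, at chr14:16409298-16409300 on the plus strand, in exon 20 of 36 in both.
Top2a: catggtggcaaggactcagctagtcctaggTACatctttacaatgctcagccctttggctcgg
Top2b: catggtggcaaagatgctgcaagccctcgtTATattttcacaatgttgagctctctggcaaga

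The type II windows match at 45 of 63 bases, as many as the type IA windows, whose pair is identical at 63.3% of aligned coding bases with a longest run of 11. The windows of Top1mt and Top1, not printed here, match at 48 of 63 bases. In Top3a the tyrosine is codon 362 of 1003, at chr11:60750771-60750773 on the minus strand, and in Top3b codon 336 of 862, at chr16:16886667-16886669 on the plus strand, in exon 11 of 19 in both. Between members of different types the longest identical run is 11 to 14 bases.
Top3a: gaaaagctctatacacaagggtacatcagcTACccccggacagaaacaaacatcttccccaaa
Top3b: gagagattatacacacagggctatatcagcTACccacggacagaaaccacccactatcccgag

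Other genes overlap some members on the opposite strand. Gm15945, an antisense transcript inside Top1mt (chr15:75657035-75678800, minus strand), shares 95 exon bases with it and was named after its values were seen. It had log2 values of 3.22, 3.77 and 2.15 for WT replicates 1, 2 and 3 and 4.31, 4.43 and 4.70 in Top1mt-KO. Every Top1mt-KO tumor lay above every WT tumor, beside 3.95% of all genes tested with Top1mt-KO higher. The log2 fold change was 1.43 (standard error 0.52, unadjusted p = 0.025, adjusted p = 0.999 by limma), beside 4.34% of all genes tested at an unadjusted p under 0.05. The level is low. The libraries were made with a stranded kit, but whether reads were counted by strand is not stated, so reads of the shared exon bases cannot be assigned. Rarb, a retinoic acid receptor gene, ends inside Top2b (chr14:16365179-16435462, plus strand) on the other strand and shares 1793 exon bases with it. Its log2 values, 7.13, 7.46 and 7.78 in WT and 7.20, 8.06 and 7.31 in Top1mt-KO, had their highest library and their lowest in common with Top2b.

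The protein-coding neighbours of Top1mt on chromosome 15, 5 on each side, were examined next. Of the 10, Ly6l, Ly6h and Mafa lay under the filter on low values. Among the other 7, Ly6f, Gpihbp1, Zfp41, Rhpn1, Zc3h3 and Gsdmd were higher in Top1mt-KO and Mroh6 lower, with a median log2 fold change of 0.15 and 0 past an adjusted or unadjusted p of 0.05 by limma, beside 985 genes at the unadjusted threshold over all genes tested. The median was 0.0036 without the library labelled WT replicate 2 and 0.0030 without Top1mt-KO replicate 1. It was 0.26 without WT replicate 1 and 0.21 without WT replicate 3, so its size rested on single libraries. Zfp41, a zinc finger gene 27208 bases away, had 5.15, 5.45 and 5.67 in WT and 5.89, 5.89 and 5.72 in Top1mt-KO, the only tested neighbour without overlap, beside 3.95% of all genes tested with Top1mt-KO higher. Mroh6 was the smallest at -0.05, and Gsdmd, whose product forms pores in pyroptosis, was the most abundant at 8.82.

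Genes whose pattern over the 6 libraries was most like a member were listed by Pearson's r, as a description. For Top1mt these were Clcn2 (r = 0.999), Hoxb3 (0.990) and Tiam2 (0.987). Clcn2, a chloride channel gene, had 8.80, 7.85 and 8.95 for WT replicates 1, 2 and 3 and 7.63, 8.12 and 8.09 in Top1mt-KO, and was chosen for its likeness, so its order of libraries adds nothing to that of Top1mt. For Top1 they were Rev1 (0.998), a gene of DNA damage bypass, Polr3d (0.991) and Fbxo41 (0.985). Rev1 had 8.53, 8.62 and 8.34 in WT and 8.14, 8.17 and 7.94 in Top1mt-KO. For Top2a they were Pms1 (0.985), a mismatch repair gene, Ccnl1 (0.983) and Gm15460 (0.980), and for Top2b they included Rarb (0.987) and Vwa1 (0.975). For Top3a they were Tube1 (0.995), Stk3 (0.992) and Ddx42 (0.992), and for Top3b Taf3 (0.990), Myo5c (0.989) and C8b (0.987). Between 12 (Top2b) and 58 (Top3a) genes had an r over 0.95 with a member. How many would reach this by chance with only 6 libraries was not tested.

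The genes that work beside the topoisomerases were taken as lists. Over all genes tested 47.7% were higher, 4.34% passed an unadjusted p of 0.05 by limma, and the groups did not overlap in 4.33% with Top1mt-KO lower and 3.95% with it higher, so a count of 0 in lists this short says little about their genes. Of 8 partners, 2 were higher and 6 lower in Top1mt-KO, with a median log2 fold change of -0.09 and 0 past an adjusted or an unadjusted p of 0.05 by limma. The median was -0.11 without the library labelled WT replicate 2, 0.028 without Top1mt-KO replicate 1 and -0.0021 without WT replicate 3. Fmr1, whose product joins Top3b and Tdrd3, had the largest, 0.15, with every Top1mt-KO tumor above every WT tumor, and Rmi2, of the complex of Top3a and the helicase Blm, the smallest, -0.20. Ncl, which encodes nucleolin, a Top1 binding protein, was the most abundant at 11.0.

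Of 21 genes that repair lesions left by topoisomerases, 12 were higher and 9 lower, with a median of 0.07 and 0 past either threshold by limma. The median was 0.04 without the library labelled WT replicate 2 and 0.14 without Top1mt-KO replicate 1, the highest on leaving out single libraries, and -0.0011 without Top1mt-KO replicate 2, the lowest. Tdp1 and Tdp2, which release trapped type I and type II enzymes from DNA ends, had log2 fold changes of -0.03 and -0.0015 and were chosen after their values were seen. Eme1, a partner of the nuclease Mus81, had the largest, 0.45, Ercc1, of another nuclease, the smallest, -0.34, and Zfp451, a SUMO ligase that aids Tdp2, was the most abundant at 9.78. Groups did not overlap in 3 of the 21, beside 4.33% of all genes tested with Top1mt-KO lower and 3.95% with it higher. Ercc1 was lower in Top1mt-KO, while Lig4 and Xrcc4, which act together in end joining and were chosen after their values were seen, were higher by 0.45 and 0.27.

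Of 8 condensin subunits, which shape chromosomes with Top2a, 5 were higher and 3 lower, with a median of 0.06, which was -0.017 without the library labelled WT replicate 2, 0.10 without Top1mt-KO replicate 1, -0.066 without WT replicate 1 and 0.21 without WT replicate 3. Ncapg had the largest log2 fold change, 0.24, and Ncaph2, the most abundant at 9.78, the smallest, -0.09, with every Top1mt-KO tumor below every WT tumor. The meiotic topoisomerase-like genes Spo11 and Gm960 were weakly expressed, at 0.22 to 1.86 and 2.93 to 4.07, with log2 fold changes of -0.52 and 0.31 and overlapping groups. Their median, -0.11, was 0.026 without the library labelled WT replicate 2, -0.11 without Top1mt-KO replicate 1, -0.33 without WT replicate 1 and -0.0089 with quantile normalization. None of the condensin or meiotic genes passed an adjusted or unadjusted p of 0.05 by limma.

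For the mtDNA on which Top1mt acts, 18 of 19 listed genes of its replication and transcription were tested and 1 was not analysed here. Of them 7 were higher and 11 lower, with a median of -0.0068, and the groups overlapped in all 18, where few without overlap are expected from the shares over all genes tested given above. The median was -0.024 without the library labelled WT replicate 2 and -0.0048 without Top1mt-KO replicate 1, but 0.0083 without Top1mt-KO replicate 2, 0.0033 without WT replicate 1 and 0.016 with quantile normalization, so it had no fixed sign. Dguok, which supplies nucleotides in mitochondria, had the largest log2 fold change, 0.22, and Primpol, a primase and polymerase, the smallest, -0.27. Polg, the mtDNA polymerase, was the most abundant, with log2 values of 9.68 to 10.1. None of the 18 passed an adjusted or unadjusted p of 0.05 by limma.

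Markers of other cells in the tumor are given beside Top1mt, and none passed an adjusted p of 0.05 by limma. Of 6 bile duct and progenitor markers, 4 were lower in Top1mt-KO, 3 of them at an unadjusted p under 0.05 by limma, beside 4.34% of all genes tested, with a median log2 fold change of -0.93. Sox9 and Spp1 went the other way, higher by 0.15 and 0.05. Krt19, a keratin of bile ducts named after its values were seen, was 6.11, 4.75 and 6.93 for WT replicates 1, 2 and 3 and 2.86, 4.38 and 2.502 in Top1mt-KO. The library labelled WT replicate 2 was the lowest of the WT group but, unlike for Top1mt, lay above every Top1mt-KO tumor. The mean centred log2 level of the list was 0.70, 0.02 and 0.915 in WT and -0.88, -0.15 and -0.61 in Top1mt-KO, without overlap. Groups did not overlap in 3 of the 6 markers, all lower in Top1mt-KO, beside 4.33% of all genes tested. The summed level of the list on the log2 scale, which is mostly that of Spp1, was 12.66, 12.19 and 11.63 in WT and 12.06, 11.74 and 12.60 in Top1mt-KO. None of its markers was in the lowest 25% of genes. Of 4 neutrophil markers 3 were lower, with a median of -1.07 and S100a9 the most abundant, 2 of them at an unadjusted p under 0.05 by limma, and their summed level was 8.25, 8.78 and 9.76 in WT and 7.81, 8.03 and 8.46 in Top1mt-KO. The part of these cells in the Top1mt values was not tested.

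The other marker lists are given by their counts, medians and most abundant gene. All 5 endothelial markers were higher in Top1mt-KO (median 0.16, Stab2 the most abundant), 3 of 4 erythroid markers were lower (median -0.72, Hbb-bs) and 5 of 6 liver tumor markers were lower (median -0.61, Glul). All 6 stellate cell and fibroblast markers were lower (median -0.45, Col3a1 the most abundant), with a summed level of 14.61, 13.33 and 13.09 in WT and 12.15, 14.22 and 13.31 in Top1mt-KO. Of the hepatocyte markers 2 of 6 were higher (median -0.04, Alb), of the macrophage markers 3 of 5 (median 0.07, Csf1r), of the T and NK cell markers 3 of 5 (median 0.10, Cd8a) and of the B cell markers 2 of 4 (median 0.11, Cd79b). At an unadjusted p under 0.05 by limma there were 2 erythroid markers, 1 stellate cell marker and 1 liver tumor marker, all lower, and 1 endothelial marker, higher, beside the 4.34% over all genes tested.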

How the data were processed

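For each gene symbol the authors deposited a log2 expression value in each of 3 WT and 3 Top1mt-KO liver tumors. The paper names Trimmomatic, BWA, a genome Mm 8, uniquely mapped reads, featureCounts and DESeq2, while the submitters' processing notes list bcl2fastq 2.17, Trimmomatic 0.36, STAR 2.5.1, Subread, GRCm38 and DESeq2; which aligner and build made the table was not settled. The transform is not named and behaves like a regularized log, which shrinks differences of weak genes. Counts and depth could not be recovered, so in place of DESeq2 the comparison was made by limma 3.58.1 under R 4.3.3 (lmFit, eBayes with trend, no covariates), on genes whose mean lay above the lowest 25%, with Benjamini-Hochberg adjustment over 22677 genes and a threshold of 0.05. The 3 columns without a name were not used, 0 further columns held per-sample values, 26 symbols look like dates and 5 occur more than once.

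Exact permutation tests used 20 regroupings, and sign-flip tests the 6 libraries (Python 3.11.15, scipy 1.17.1). Lengths, positions and sequences came from GENCODE M21 on GRCm38. Summed levels added 2 to the power of the per length log2 values. The tumors are separate samples by their labels and independent by the paper, but whether each came from its own mouse is not stated, so p-values measure the spread between these samples. The limma procedure was tested on simulated data with known shifts.

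The members and lists were chosen with earlier results of these data known. Genes named are the members; in each list those at an unadjusted p under 0.05, the largest and smallest log2 fold change and the most abundant; the 10 neighbours of Top1mt; the 3 genes most like each member; and of each marker list the most abundant gene and any in the lowest 25%. Some items are not reported here. Alternatives were no filter, a filter at the median, no trend, quantile normalization, a replicate block, each library left out, WT replicate 2 and Top1mt-KO replicate 1 left out together, the longest transcript as length, and no length correction.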

Additional observations from a re-analysis of the deposited data

How the results depend on the processing

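The number of genes called by limma was 0 under the main settings, 4 with no filter on low values and 0 to 1 on leaving out each library in turn (1 without Top1mt-KO replicate 1). At an unadjusted p under 0.05 it was 985, and 590 to 1354 over the alternatives. At an adjusted p under 0.05 none of the 6 members was called under any of the 12 alternatives. At an unadjusted p under 0.05 by limma, Top1 passed with no filter (0.0467) and with quantile normalization (0.0385). Top1mt was under it only where WT replicate 2 was left out, and Top2a only without WT replicate 3. Each of these is the WT tumor furthest from its group for that gene, so its removal lowers p by construction, and neither is read as a pass. Top1mt and Top1 were lower and Top2a higher in Top1mt-KO under all 12 alternatives. With each library left out in turn, the log2 fold change ran from -0.048 to 0.090 for Top2b, from -0.061 to 0.26 for Top3a and from -0.098 to 0.20 for Top3b, so their sign depended on single libraries, and the difference in the summed level of the 5 paralogs ran from -0.074 to 0.052. The cause was not tested. With a replicate block limma called 0 genes (912 at an unadjusted p under 0.05), while the differences in the summed level (-0.025) and in the Top1mt share (-9.47 percentage points) cannot move by construction, and their exact sign-flip p over 3 pairs was 0.75 and 0.5. Same-numbered libraries correlated at -0.123, -0.0759 and 0.052 in their deviations from the group means, so same numbers did not mark paired tumors. With 3 tumors in each group and no known depth, a lack of calls does not exclude changes of the size the intervals allow.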
